A study of Mus musculus with 20 samples.

Results

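*Ube3a* and the transcripts on the opposite DNA strand at its start and at its end were followed in mouse brain, as 3 of the 47729 genes in the deposited count files. The members were chosen by gene symbol and are *Ube3a*, RP24-439I22.3 and *Snhg14*, and all 3 passed the filter on low counts in every comparison. RNA was sequenced from the hippocampus and the cortex of 5 WT mice (numbered 1 to 5) and 5 Ube3aOE mice (numbered 6 to 10). All 10 mice were C57Bl/6J pups of both labelled sexes at postnatal day 7, and each tissue of each mouse gave 1 library, so the 20 libraries come from 10 animals. The Ube3aOE mice of the RNA sequencing carried the transgene configuration that the study calls Ube3a+2, with 2 extra copies of *Ube3a* on a bacterial artificial chromosome. By the study's description the transgene is floxed and holds the full coding region of the mouse gene with long flanks on both sides, and in 2 of its founder lines it sits on chromosome 3. The upstream flank it describes is longer than the distance from *Ube3a* to the far end of RP24-439I22.3, whereas the downstream flank covers only a small part of the span of *Snhg14*. The study states that it used mainly line E for its later characterization, and does not name the line again for the RNA sequencing. WT mice carried no transgene and kept both endogenous alleles, as did the Ube3aOE mice.

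*Ube3a* encodes an E3 ubiquitin ligase, the last enzyme of a cascade that attaches ubiquitin to proteins. The gene is imprinted in neurons, where the maternal allele is expressed and the paternal allele is silenced, while other brain cells express both alleles. *Snhg14* is a long noncoding RNA made from the paternal chromosome, which hosts small nucleolar RNAs and, in neurons, extends across *Ube3a* on the other strand as the antisense transcript known as *Ube3a-ATS*. Loss of maternal *UBE3A* causes Angelman syndrome, and maternal duplications of the region cause Dup15q syndrome. RP24-439I22.3 is an annotated transcript without a known function.

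The 3 genes lie on chromosome 7 of the mouse build GRCm38, with positions from GENCODE release M21. *Ube3a* (ENSMUSG00000025326) spans bases 59228750 to 59311536 on the forward strand, with 18 annotated transcripts whose exons merge into 16 blocks of 20626 bases in all. RP24-439I22.3 (ENSMUSG00000109536, listed in M21 as 9330162G02Rik in a class of transcripts still to be proven by experiment) is a single exon of 30942 bases on the reverse strand, from base 59223847 to base 59254788. It begins inside *Ube3a* and ends 4903 bases before the start of *Ube3a*, so that 84.2% of it lies within the *Ube3a* gene, mostly across introns. Only 1796 of its bases, 5.80%, face exons of *Ube3a*, in 7 of the 16 blocks. *Snhg14* (ENSMUSG00000100826) runs on the reverse strand from base 59307924 to base 59975759, with 15 annotated transcripts and 65 exon blocks of 26093 bases in all. A single exon block of *Snhg14*, of 1803 bases (6.91% of its exon bases), faces the last exon of *Ube3a*, and its other blocks extend over the 664223 bases after the end of *Ube3a*. The annotated *Snhg14* therefore reaches only the last exon of *Ube3a* and shares no bases with RP24-439I22.3. The *Ube3a-ATS* that extends across *Ube3a* in neurons would run past this annotation, on the strand of RP24-439I22.3.

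**Figure D1:**
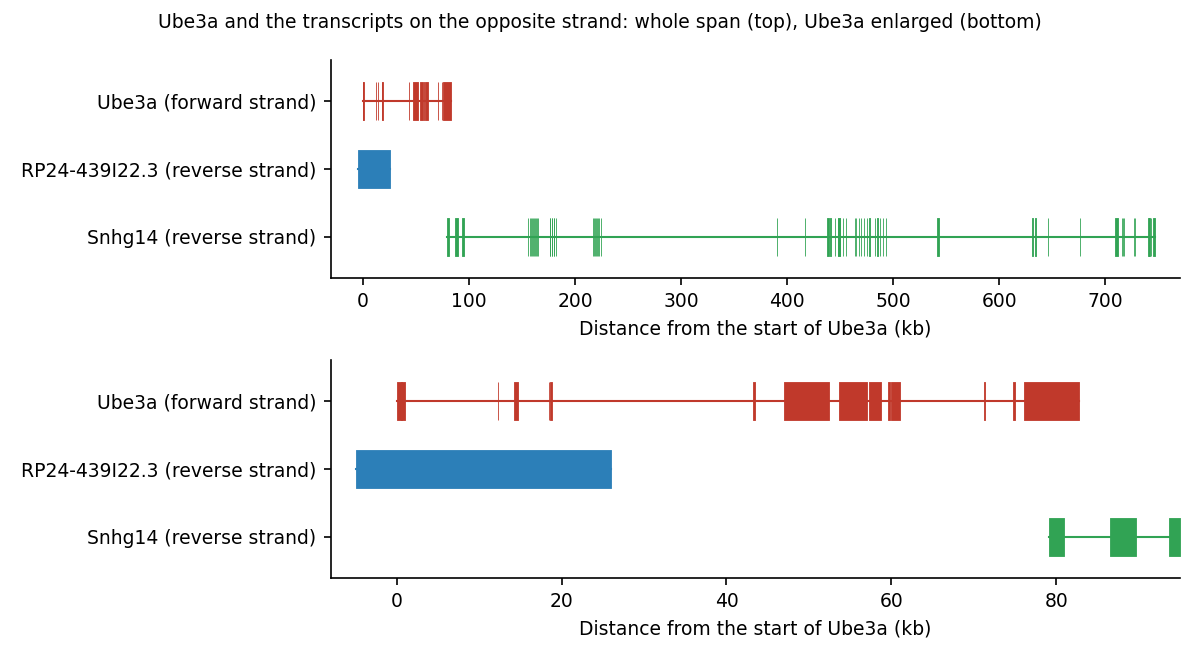
Exon blocks (boxes) and gene spans (lines) of *Ube3a*, RP24-439I22.3 and *Snhg14* by distance from the start of *Ube3a* in kb, for the whole span (top) and around *Ube3a* (bottom). RP24-439I22.3 covers the start of *Ube3a* on the opposite strand, and *Snhg14* meets *Ube3a* only in the last *Ube3a* exon.

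The stretch before the first base of *Ube3a* lies inside the exon of RP24-439I22.3 on the other strand. By annotation it is therefore exon DNA of the antisense gene and promoter DNA of *Ube3a*. The counts are per gene and do not show whether this stretch held reads. It is shown here because the transgene is described as carrying *Ube3a* with its own upstream sequence. The 250 bases from RefSeq (GRCm38.p6, forward strand, chr7:59228500-59228749), with the CG dinucleotides in capitals, read 5′ to 3′:
Ube3a promoter: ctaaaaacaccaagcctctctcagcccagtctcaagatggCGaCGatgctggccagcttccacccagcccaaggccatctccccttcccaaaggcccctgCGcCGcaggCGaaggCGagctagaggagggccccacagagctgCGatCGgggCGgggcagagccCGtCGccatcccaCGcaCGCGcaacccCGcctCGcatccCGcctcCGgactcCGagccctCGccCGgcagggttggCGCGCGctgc
The window holds 24 CG dinucleotides, a count that reads the same on both strands, and 70% of its bases are G or C. Among 32851 RefSeq promoter windows of the same length, the median count was 6 and 11.98% held at least as many. The letters TATAAA were found 0 times in the window, searched on both strands.

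Reads that fall on exons of genes on both strands matter for these 3 genes. The labels name a stranded mRNA kit, and the strand setting of the counting is not given in the sources used here. Reads set aside as falling on more than 1 gene were 0.756% to 0.879% of each library. At least 1 count in at least 1 library was found on 195 of 441 genes (44.2%) whose exons lie wholly inside exons of the other strand in M21. Most of these counts were few: 17 of the genes had at least 100 counts over all libraries, and the 441 held 9946 counts in all. Counting that ignored strand would have set the reads of such genes aside if the annotation of the counting held the same exons. Reads of *Ube3a* introns on the forward strand and reads of RP24-439I22.3 could be told apart only by strand. Reads of *Ube3a-ATS* within the exon of RP24-439I22.3 lie on the same strand and could not be told apart from it by these counts. The counts on *Snhg14* hold only the part of *Ube3a-ATS* in annotated *Snhg14* exons.

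The libraries held 14191093 to 16752326 reads on genes, with a median of 16295195. The cortex library of WT mouse 2 stood apart with 69.7% of its reads on genes, against 76.0% to 81.2% in the other 19. In 2 WT mice (3 and 5) the counts of *Xist* and of Y-linked genes went against the labelled sex. Summed markers of hippocampus (4 genes) were 319 to 486 CPM in WT hippocampus and 49.8 to 71.1 CPM in WT cortex, and those of cortex (4 genes) 111 to 280 CPM and 522 to 653 CPM, so the tissues matched their labels. The hippocampus of WT mouse 2 had the highest cortex sum, 280 CPM against 111 to 134 CPM in the other WT hippocampi, and the highest neuron sum (5 genes), 5509 CPM against 4225 to 4482 CPM. The cortex of Ube3aOE mice 8 and 9 had hippocampus sums of 152 and 144 CPM against 58.0 to 78.9 CPM in the other 3. Choroid plexus markers (3 genes) summed to 1920 CPM in the hippocampus of Ube3aOE mouse 7 and to 334 CPM in that of mouse 9, and to at most 31.2 CPM in each of the other 18 libraries, where *Ttr* was at 0 in 2 and *Folr1* at 0 in 1. Thalamus markers (2 genes) summed to 613, 306 and 249 CPM in the hippocampi of Ube3aOE mice 10 and 7 and WT mouse 4, and to at most 55.6 CPM elsewhere. Values without single mice are given for the fitted differences of the 3 members and for some region calls of the gene lists. They are not given for the agreement between tissues or for the genotype differences of the listed genes. In tissue samples like these, fewer cells of a type and less RNA per cell cannot be told apart.

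*Ube3a* transcript was about 2.5-fold more abundant in Ube3aOE than in WT mice, and by nearly the same amount in both tissues. Levels are given as CPM, the reads of a gene relative to the TMM-scaled library total over the 20 libraries. In WT hippocampus, *Ube3a* was at 69.5, 76.8, 57.1, 60.2 and 59.9 CPM in mice 1 to 5. In Ube3aOE hippocampus, it was at 142, 147, 183, 143 and 195 CPM in mice 6 to 10. The lowest transgenic mouse lay far above the highest WT mouse, and mice 8 and 10 were above the other 3. In cortex, the WT mice were at 58.6, 54.4, 70.0, 60.2 and 62.1 CPM. The Ube3aOE mice were at 136, 129.8, 181, 129.6 and 182 CPM in cortex, again without overlap with WT and with mice 8 and 10 highest.

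The mean was 64.7 ± 8.21 CPM (SD, n = 5) in WT and 162 ± 24.9 CPM in Ube3aOE hippocampus, which is 250.7% ± 38.5 of WT. In cortex, it was 61.1 ± 5.71 CPM and 152 ± 27.2 CPM, or 248% ± 44.5 of WT. Spread over the 2 transgene copies, the gain was 75.3% of the WT level per copy in hippocampus and 74.1% in cortex. The log2 fold change fitted by edgeR was 1.32 (SE 0.11, 95% interval 1.08 to 1.56) in hippocampus and 1.31 (SE 0.11, 95% interval 1.07 to 1.56) in cortex. This contrast was among the values that chose the genes, so it is given as a description without a test. In the fit, 1 of 15220 genes (0.00657%) had an adjusted p under 0.05 in hippocampus and 1 of 14947 (0.00669%) in cortex, which is given as background only. All 5 Ube3aOE mice were above all 5 WT mice in 0.493% of the genes in hippocampus and in 0.301% in cortex. Leaving out any 1 mouse gave log2 fold changes of *Ube3a* of 1.25 to 1.40 in hippocampus and 1.24 to 1.37 in cortex. Without mouse 7, whose hippocampus had the highest choroid plexus sum, it was 1.36 there, and without WT mouse 2 it was 1.40 in hippocampus and 1.27 in cortex.

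*Ube3a* ranked higher among all genes in Ube3aOE than in WT mice. Of the 15661 genes that passed the filter over all libraries, 75.6% had a lower mean CPM than *Ube3a* in WT hippocampus and 91.5% in Ube3aOE hippocampus. The shares were 73.9% and 90.1% in cortex. *Snhg14* stood above 55% to 60% and RP24-439I22.3 above 20% to 27% of the genes in the 4 groups.

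**Figure D2:**
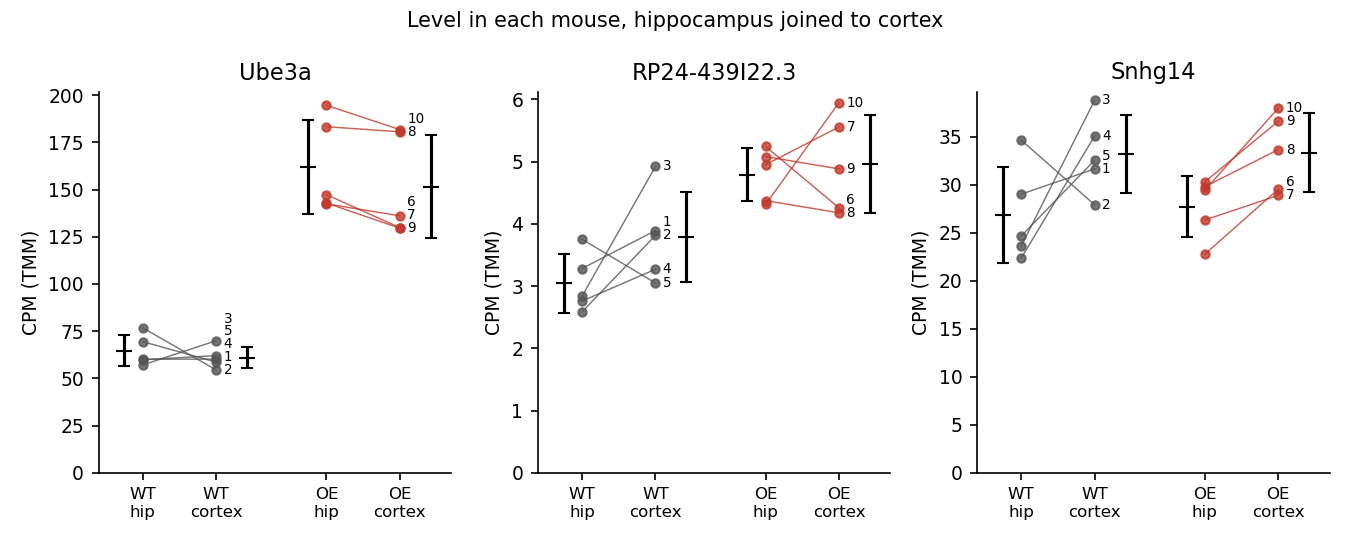
CPM of the 3 genes in each mouse, with hippocampus (hip) joined to cortex of the same animal, WT in grey and Ube3aOE (OE) in red, mouse numbers beside the cortex points, and group mean ± SD (n = 5) as black bars. *Ube3a* separates the genotypes in both tissues, RP24-439I22.3 only in hippocampus, and *Snhg14* in neither tissue.

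RP24-439I22.3 was also higher in Ube3aOE mice, by less than *Ube3a*. In hippocampus, the WT mice were at 3.28, 2.58, 2.84, 2.76 and 3.75 CPM and the Ube3aOE mice at 5.24, 4.95, 4.37, 5.08 and 4.31 CPM. The groups did not overlap, as in 0.493% of all genes tested in hippocampus. In this tissue mice 8 and 10, with the most *Ube3a*, had the least RP24-439I22.3 among the transgenic mice. They had 74 and 72 counts against 79 to 88, where counting error was 11.3% of the group mean. In cortex, the WT mice were at 3.89, 3.81, 4.92, 3.27 and 3.05 CPM and the Ube3aOE mice at 4.26, 5.56, 4.18, 4.88 and 5.95 CPM. Here the groups overlapped: only mice 7 and 10 lay above every WT mouse, and WT mouse 3 lay above 3 of the transgenic mice. Mouse 8 again had the least RP24-439I22.3 of the transgenic mice, but mouse 10, with the most *Ube3a*, had the most. At least 2 of the 5 Ube3aOE mice lay above all WT mice in 26.4% of the genes in cortex.

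The mean of RP24-439I22.3 was 3.04 ± 0.473 CPM in WT and 4.79 ± 0.423 CPM (SD, n = 5) in Ube3aOE hippocampus, or 157.5% ± 13.9 of WT. In cortex, it was 3.79 ± 0.727 and 4.96 ± 0.783 CPM, or 131.0% ± 20.7 of WT. The log2 fold change was 0.65 (SE 0.15, 95% interval 0.34 to 0.96) in hippocampus and 0.39 (SE 0.16, 95% interval 0.04 to 0.74) in cortex. As for *Ube3a*, this contrast was among the values that chose the genes, so the intervals are a description. RP24-439I22.3 was not among the genes with an adjusted p under 0.05 in either tissue. Leaving out 1 mouse at a time gave 0.60 to 0.74 in hippocampus and 0.32 to 0.51 in cortex. The transcript was counted 42 to 94 times per library, so counting error alone is 11.2% to 13.9% of a group's mean, beside a spread between mice of 8.82% to 19.2%. Counting error was therefore of the size of the spread between mice.

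*Snhg14* had the same level in both genotypes within the spread between mice. In hippocampus, it was at 29.0, 34.6, 23.6, 22.4 and 24.7 CPM in WT and at 22.8, 26.3, 29.8, 30.3 and 29.4 CPM in Ube3aOE mice. WT mouse 2 was the highest of all 10 and WT mouse 4 the lowest, so the transgenic values fell within the WT range. In cortex, it was at 31.6, 27.9, 38.8, 35.1 and 32.6 CPM in WT and at 29.5, 28.9, 33.7, 36.6 and 38.0 CPM in Ube3aOE mice, again inside the WT range.

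The means of *Snhg14* were 26.9 ± 5.02 and 27.7 ± 3.18 CPM (SD, n = 5) in WT and Ube3aOE hippocampus, and 33.2 ± 4.06 and 33.3 ± 4.08 CPM in cortex. The log2 fold change was 0.04 (SE 0.12, 95% interval -0.22 to 0.31) in hippocampus and 0.01 (SE 0.10, 95% interval -0.21 to 0.22) in cortex. The intervals reach 1.24-fold in hippocampus and 1.17-fold in cortex, well below the change of *Ube3a*. Without mouse 2 the values were 0.16 and -0.05, and with each library's trend on transcript length removed they were -0.05 in both tissues, so the sign was not fixed.

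**Figure D3:**
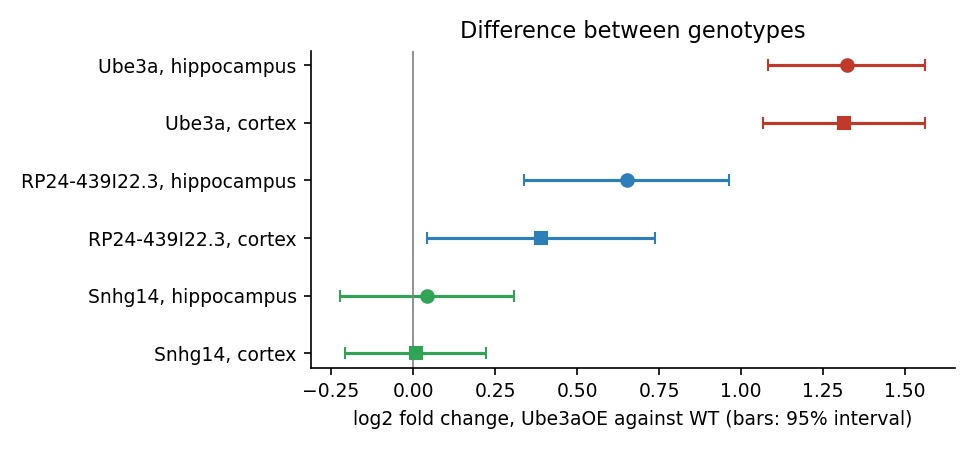
Log2 fold change of Ube3aOE against WT for the 3 genes in hippocampus (circles) and cortex (squares), with 95% intervals from the edgeR fit of 5 against 5 mice. The *Ube3a* intervals start at 1.07 and above, those of RP24-439I22.3 lie between 0.04 and 0.96, and those of *Snhg14* span 0.

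Set against the dose of *Ube3a*, the antisense transcripts behaved differently from each other. For each 100 CPM of additional *Ube3a* in hippocampus there were 1.80 CPM of additional RP24-439I22.3 and 0.885 CPM of additional *Snhg14*. In cortex, the increments were 1.30 and 0.157 CPM. Those of *Snhg14* rest on mean differences of 0.863 CPM in hippocampus and 0.142 CPM in cortex. The group SDs were 5.02 and 3.18 CPM in hippocampus and 4.06 and 4.08 CPM in cortex, so these increments cannot be told from 0. In WT mice, 100 CPM of *Ube3a* went with 4.78 ± 1.04 CPM of RP24-439I22.3 (SD, n = 5) in hippocampus and 6.21 ± 0.973 CPM in cortex. In Ube3aOE mice the ratio was 3.04 ± 0.686 and 3.35 ± 0.737, so RP24-439I22.3 gained less than *Ube3a* in proportion.

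The ratio of *Snhg14* to *Ube3a* carries the genotype difference of *Ube3a*, which chose the genes, and is a description. It was 41.3 ± 2.83 CPM per 100 CPM of *Ube3a* in WT hippocampus (37.2 to 45.1 over the mice) and 17.3 ± 2.41 in Ube3aOE hippocampus (15.1 to 21.2). In cortex, it was 54.3 ± 2.73 in WT (51.2 to 58.3) and 22.35 ± 3.58 in Ube3aOE mice (18.6 to 28.3). Counting error was 1.93% to 3.27% of the mean for *Ube3a* and 4.32% to 4.71% for *Snhg14*. Relative to its mean, this ratio varied less than either transcript among WT mice. Among Ube3aOE mice it varied less than *Ube3a* but more than *Snhg14* in both tissues. WT mouse 2, whose libraries stood apart in the checks above, was at an end of the WT range for both transcripts in each tissue. In hippocampus, mice 2 and 1 ranked first and second for both transcripts, but mouse 4 was above mice 3 and 5 for *Ube3a* and below both for *Snhg14*. In cortex, mouse 3 ranked first and mouse 2 last for both, while mouse 5 was above mouse 4 for *Ube3a* and below it for *Snhg14*.

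**Figure D4:**
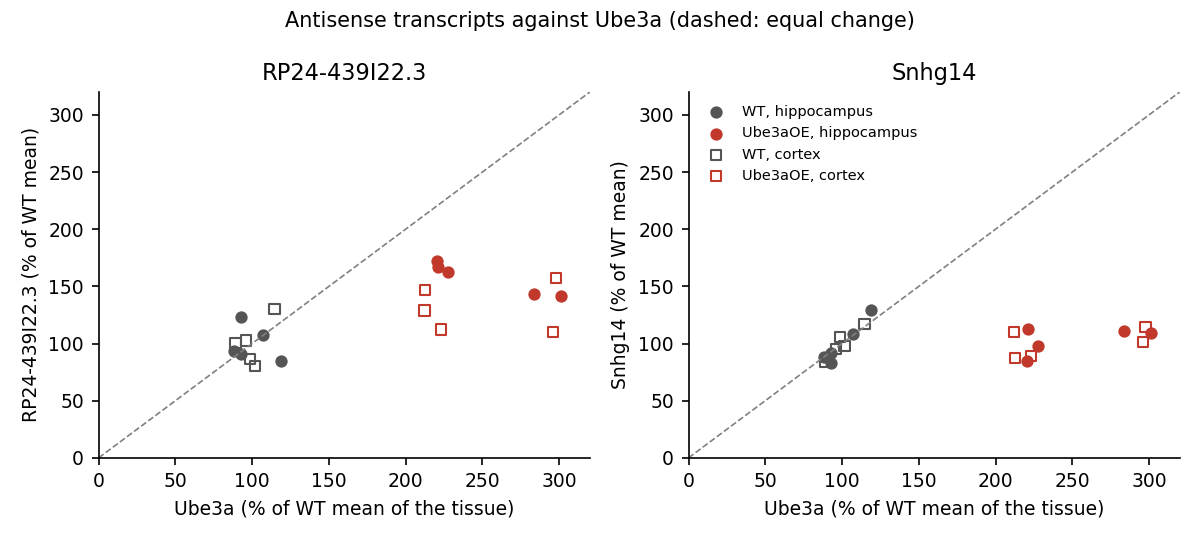
Level of RP24-439I22.3 (left) and *Snhg14* (right) against *Ube3a* in each library, all as percent of the WT mean of the tissue, with WT in grey, Ube3aOE in red, hippocampus as filled circles and cortex as open squares. The WT points of *Snhg14* lie near the dashed line of equal change, while the Ube3aOE points lie at 212% to 301% for *Ube3a* and at 84.8% to 114% for *Snhg14*.

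Levels of different genes were compared per length, as CPM per kb of merged exons. On this scale *Ube3a* was at 3.14 ± 0.398 in WT and 7.86 ± 1.21 in Ube3aOE hippocampus, and at 2.96 ± 0.277 and 7.35 ± 1.32 in cortex (SD, n = 5). *Snhg14* was at 1.03, 1.06, 1.27 and 1.28 in the same 4 groups, and RP24-439I22.3 at 0.0983, 0.155, 0.122 and 0.160. The order of the genes was *Ube3a*, *Snhg14*, RP24-439I22.3 in all 4 groups. With the longest transcript of each gene as its length (9856, 6861 and 30942 bases), *Ube3a* was at 6.56 and *Snhg14* at 3.91 in WT hippocampus, in the same order. Over the 4 groups, *Ube3a* ran from WT cortex through WT hippocampus and Ube3aOE cortex to Ube3aOE hippocampus, and the neighbours within a genotype did not differ beyond their spread. *Snhg14* ran from WT hippocampus through Ube3aOE hippocampus and WT cortex to Ube3aOE cortex, and RP24-439I22.3 from WT hippocampus through WT cortex and Ube3aOE hippocampus to Ube3aOE cortex. In these orders of *Snhg14* and RP24-439I22.3, neighbours differed by less than the sum of their SDs.

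Other annotated transcripts at the locus had few counts. The files hold 6 more (RP24-439I22.4 to RP24-439I22.9), counted 0 to 14 times per library. Their overlap with exons of other genes on the same strand, where reads would be set aside, was not computed. RP24-439I22.8, on the strand of *Ube3a*, had 3 counts in the 5 WT and 17 in the 5 Ube3aOE hippocampi, and 16 and 29 in cortex. It was singled out after its values were seen, and such counts are too few for a comparison per mouse.

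The mean of *Snhg14* was lower in hippocampus than in cortex in both genotypes. In the main fit, which leaves out the pairing of tissues by mouse, this was called only in WT mice. That call was lost with the mouse as a replicate block. *Ube3a* did not differ detectably between the regions. Hippocampus and cortex were compared over all 20 libraries by edgeR's quasi-likelihood test with Benjamini-Hochberg adjustment, in which 37.1% of 15661 genes were called in WT and 33.2% in Ube3aOE mice. *Ube3a* differed by 0.08 on the log2 scale in WT (95% interval -0.17 to 0.33, adjusted p = 0.623) and by 0.10 in Ube3aOE mice (95% interval -0.15 to 0.34, adjusted p = 0.563). *Snhg14* was lower in WT hippocampus by a log2 difference of -0.31 (SE 0.12, adjusted p = 0.0444), among the 18.3% of genes called lower. With the mouse as a replicate block the same difference was -0.32 with an adjusted p of 0.0502. In Ube3aOE mice, the difference of *Snhg14* was -0.27 (SE 0.12, adjusted p = 0.0859 without and 0.0981 with the block). RP24-439I22.3 had a difference of -0.31 in WT (adjusted p = 0.1097) and of -0.05 in Ube3aOE mice (adjusted p = 0.829).

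The call for *Snhg14* depended on single mice. It held without mouse 2 in WT, where the difference was -0.46 (adjusted p = 0.00243), and in 4 of the 10 fits that left out 1 mouse. It was lost without mouse 3 (-0.20, adjusted p = 0.249), 4 (-0.23, 0.203), 5 (-0.28, 0.128), 1 (-0.34, 0.0673), 9 (-0.29, 0.0639) or 8 (-0.31, 0.0548). Neuron markers summed to 4225 to 5509 CPM in WT hippocampus and 5738 to 6052 CPM in WT cortex, and astrocyte markers (4 genes) to 850 to 1197 and 558 to 733 CPM. The part of these cell type differences in the difference of *Snhg14* was not tested. The genotype difference itself was compared between tissues by the interaction term, in which 0 of 15661 genes were called by edgeR (590, or 3.77%, had an unadjusted p under 0.05). The fold change in hippocampus minus that in cortex was 0.01 for *Ube3a* (95% interval -0.33 to 0.36), 0.04 for *Snhg14* (-0.30 to 0.38) and 0.26 for RP24-439I22.3 (-0.17 to 0.70), all on the log2 scale. That of RP24-439I22.3 was 0.13 without mouse 3 and 0.42 without mouse 5.

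For *Ube3a*, the tissues of a mouse lay on the same side of the group mean in 5 of 5 Ube3aOE mice and in 1 of 5 WT mice. Among the transgenic mice, the log2 difference between hippocampus and cortex was 0.07, 0.18, 0.02, 0.14 and 0.10 in mice 6 to 10, a mean of 0.10 with an SD of 0.06. All 5 transgenic mice were on the same side of their group mean in both tissues, with mouse 10 first and mouse 8 second in each. In WT mice, the differences were 0.24, 0.50, -0.29, 0.00 and -0.05, a mean of 0.08 with an SD of 0.30, and 1 of 5 mice was on the same side in both tissues. Mouse 2, with the highest hippocampal *Ube3a* of the WT mice, had the lowest in cortex, and for mouse 3 the order was the opposite. Both libraries of mouse 2 stood apart in the checks above, and the agreement without this mouse is not given. Other WT mice were on opposite sides by small deviations, 0.11 in hippocampus and -0.05 in cortex for mouse 1 and -0.10 and 0.03 for mouse 5. Whether the genotypes differ in this agreement was not tested, and the share of all genes with such counts was not computed.

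*Snhg14* showed the same arrangement. In Ube3aOE mice the hippocampus was below the cortex by a mean log2 difference of -0.27 with an SD of 0.11, and 5 of 5 mice were on the same side in both tissues. In WT mice the mean was -0.32 with an SD of 0.42, and 1 of 5 was on the same side. The hippocampus was the lower tissue in 9 of the 10 mice, all but WT mouse 2, whose libraries stood apart. For RP24-439I22.3 the tissues were on the same side in 2 of 5 mice of each genotype, with an SD of the difference of 0.41 in WT and 0.29 in Ube3aOE mice.

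**Figure D5:**
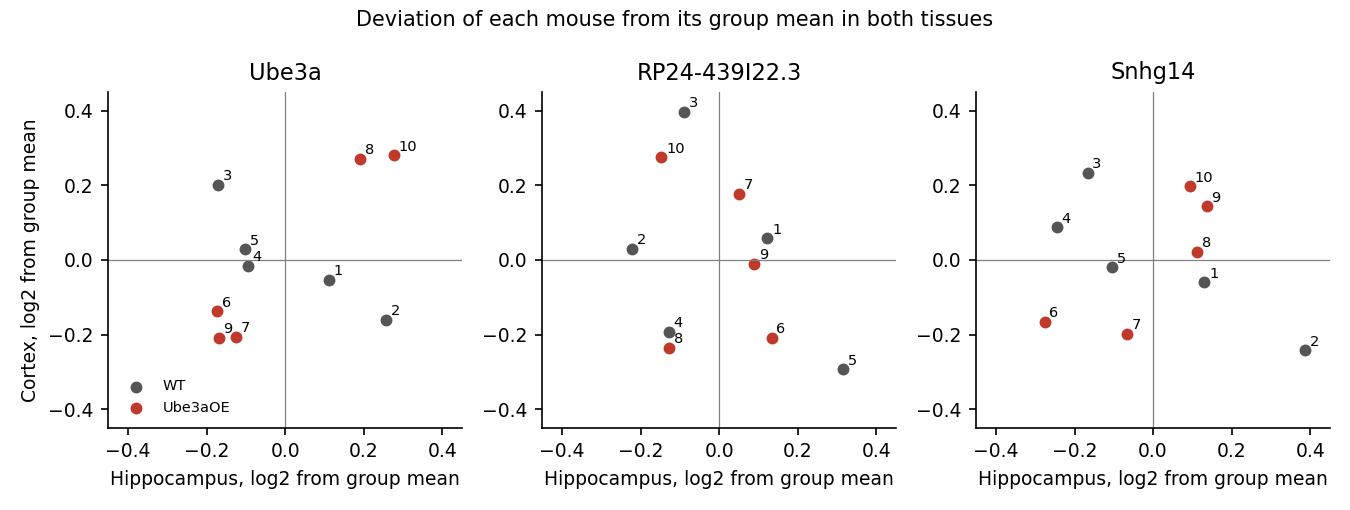
Deviation of each mouse from the mean of its genotype in hippocampus (horizontal) and cortex (vertical), in log2 CPM, with mouse numbers, WT in grey and Ube3aOE in red. For *Ube3a* and *Snhg14* all 5 Ube3aOE mice lie in the lower left and upper right corners, whereas 1 of 5 WT mice does.

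A trend on transcript length moved with some of these deviations. The median deviation of genes with long transcripts (from 4780 bases) minus that of genes with short ones (up to 2146 bases) was taken in each library, on the log2 scale and relative to the tissue. It was -0.19 in the cortex of WT mouse 2, which had the least *Ube3a* and the least *Snhg14* of the WT cortices. In the other WT cortices it did not run with these transcripts: it was -0.04 in mouse 3, with the most of both, and 0.08 in mouse 1, with the second lowest of both. In WT hippocampus it was 0.01 and -0.01 in mice 1 and 2, which had the most of both, and -0.08 to -0.13 in mice 3 to 5. In Ube3aOE mice it was 0.14 and 0.15 in the hippocampi of mice 10 and 8 and 0.08 and 0.05 in their cortices. It was also 0.09 and 0.06 in the hippocampus and cortex of mouse 9, which had low *Ube3a* but high *Snhg14*. In mice 6 and 7 it was 0.01 and -0.09 in hippocampus and -0.02 and -0.05 in cortex. For *Snhg14*, mice 8, 9 and 10 were above and mice 6 and 7 below the group mean in both tissues, so its agreement ran with this trend in Ube3aOE mice. After this trend was removed, the log2 fold change of *Ube3a* was 1.20 in hippocampus and 1.23 in cortex, that of RP24-439I22.3 0.53 and 0.27, and *Snhg14* was lower in hippocampus in both genotypes (-0.32 in WT, adjusted p = 0.0159, and -0.33 in Ube3aOE mice, adjusted p = 0.0160). The part of this trend in the agreement between tissues was not tested.

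Genes whose pattern was most like that of *Ube3a* were taken by Pearson's correlation over the 20 libraries, after centring log2 CPM on the mean of each tissue, among 15660 other genes. These libraries share mice, depth and the trend on transcript length. The 5 nearest were *Smcr8* (r = 0.82), which encodes a partner of C9ORF72, *Tfrc* (0.79), the transferrin receptor, *Rictor* (0.79), a subunit of mTOR complex 2, *Kat6a* (0.78), a histone acetyltransferase, and *Esyt2* (0.76), a lipid transfer protein of membrane contact sites. RP24-439I22.3 came 9th with r = 0.75 and *Snhg14* 3375th with r = 0.26. This centring leaves the genotype difference in the correlation. That difference was among the values that chose the members, so their ranks are a description and no support. The differences between genotypes of the 5 nearest genes were small beside that of *Ube3a*, with log2 fold changes of 0.13 to 0.26 in hippocampus and 0.17 to 0.36 in cortex. None of the 5 was called between genotypes by edgeR (adjusted p = 0.668 to 0.688 in hippocampus and 0.960 in cortex).

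With the mean of each genotype and tissue taken out, what remains is the variation among mice of a group, and the order of the antisense transcripts turned around. *Snhg14* came 57th with r = 0.69, and RP24-439I22.3 10098th with r = -0.12. Counting error was 11.2% to 13.9% of a group's mean for RP24-439I22.3, beside a spread between mice of 8.82% to 19.2%. For *Snhg14* these were 4.32% to 4.71% and 11.5% to 18.7%. The low r of RP24-439I22.3 therefore cannot be told from counting error, and the 2 ranks are not comparable. The nearest 5 were then *Vamp7* (0.84), a SNARE protein, *Qser1* (0.83), *Pgr* (0.82), the progesterone receptor, *Osbpl8* (0.82), a lipid transfer protein, and *Cpeb2* (0.80), which binds polyadenylation elements in mRNA.

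The neighbours of *Ube3a* in the imprinted region were not called between genotypes. The list held 8 genes, of which 7 were in the files and 6 passed the filter (*Snrpn*, *Ndn*, *Magel2*, *Mkrn3*, *Peg12* and *Atp10a*), while *Snurf* had no counts. By edgeR 0 of 6 had an adjusted p under 0.05 in either tissue, and 1 had an unadjusted p under 0.05 in each, beside 7.21% of all genes in hippocampus and 4.44% in cortex. DESeq2 and limma voom also called 0, with 1 and 1 at an unadjusted p under 0.05 in hippocampus and 0 and 1 in cortex. The median log2 fold change of the 6 was 0.04 in hippocampus and 0.09 in cortex, beside a median of 0.00 over all genes tested in each tissue. *Snrpn*, a paternally expressed splicing factor gene whose promoter region also starts *Snhg14*, was at 501 ± 10.5 and 483 ± 22.9 CPM (SD, n = 5) in WT and Ube3aOE hippocampus and at 549 ± 20.6 and 513 ± 41.9 CPM in cortex, with log2 fold changes of -0.05 (95% interval -0.16 to 0.05) and -0.09 (95% interval -0.22 to 0.03). The genes with an unadjusted p under 0.05 were *Magel2* in hippocampus, at 8.40 ± 2.02 CPM in WT and 14.7 ± 5.08 CPM in Ube3aOE mice (log2 fold change 0.80, 95% interval 0.26 to 1.34, adjusted p = 0.668 by edgeR), and *Peg12* in cortex, at 1.23 ± 0.351 and 1.77 ± 0.352 CPM (0.51, 95% interval 0.01 to 1.01, adjusted p = 0.960). The hippocampi of Ube3aOE mice 7, 9 and 10 and of WT mouse 4 held choroid plexus or thalamus markers. Their part in the *Magel2* difference was not tested.

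Between regions, 2 of the 6 neighbours were called higher in WT hippocampus, beside 18.8% of all genes. They were *Peg12* (log2 difference 1.03, SE 0.20, adjusted p = 0.00036) and *Mkrn3* (0.34, SE 0.12, adjusted p = 0.0287), which encodes a RING finger protein. In Ube3aOE mice, 1 was called higher, *Magel2* (0.56, SE 0.20, adjusted p = 0.0384), a regulator of ubiquitin ligases, beside 17.1% of all genes. *Magel2* lost the call when Ube3aOE mouse 7, 9 or 10 was left out (log2 difference 0.50, 0.50 and 0.44, adjusted p = 0.134, 0.101 and 0.148). The hippocampi of these mice held choroid plexus or thalamus markers, whose part in the result was not tested. *Mkrn3* lost it without mouse 1, 4 or 5 (adjusted p = 0.147, 0.0743 and 0.0665). A difference between the genotypes in these region effects was not called for any of the 6 genes (smallest adjusted p = 0.997).

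None of the genes described that act with UBE3A in the ubiquitin cascade was called between genotypes either. The 8 genes described were all tested: the activating enzyme *Uba1*, the conjugating enzymes *Ube2l3*, *Ube2d1*, *Ube2d2a* and *Ube2d3*, the ubiquitin gene *Ubb*, the ligase *Herc2*, and the proteasomal ubiquitin receptor *Psmd4*. By edgeR, DESeq2 and limma voom 0 of 8 were called in either tissue, with 0 at an unadjusted p under 0.05 in hippocampus and 1 in cortex by each tool. Their median log2 fold change was -0.02 in hippocampus and -0.01 in cortex. *Ube2l3*, whose product is a partner of UBE3A, was at 132 ± 5.46 and 129 ± 7.31 CPM (SD, n = 5) in WT and Ube3aOE hippocampus and at 127 ± 5.46 and 126 ± 4.45 CPM in cortex. *Herc2*, a ligase that binds UBE3A, was at 118 ± 41.9 and 127 ± 11.7 CPM in hippocampus and at 159 ± 28.9 and 181 ± 13.2 CPM in cortex.

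Between regions, *Ube2d1* was lower in hippocampus in WT mice (-0.25, SE 0.07, adjusted p = 0.00859) and in Ube3aOE mice (-0.25, SE 0.07, adjusted p = 0.00896). It was the single call of 8 in WT, where 18.3% of all genes were called lower. In Ube3aOE mice there were 3 calls, all lower in hippocampus, beside 16.1% of all genes. *Herc2* was among them (-0.51, SE 0.17, adjusted p = 0.0314) and lost its call when mouse 6, 7, 8, 9 or 10 was left out (adjusted p = 0.0506 to 0.107). The third was *Ubb* (-0.19, SE 0.07, adjusted p = 0.0257). In WT mice the edgeR differences were -0.43 for *Herc2* (adjusted p = 0.0608) and -0.09 for *Ubb* (adjusted p = 0.295). A difference between the genotypes in these region effects was not called for any of the 8 genes (smallest adjusted p = 0.997).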

How the data were processed

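The authors deposited 1 table of raw read counts per gene for each of the 20 libraries, and 5 lines for other reads, which were left out here. The labels name HISAT2 2.1.0, HTSeq 0.11.2 and the build GRCm38 (mm10); the annotation release and the strand setting are not given in the sources used here. Of the gene identifiers, 47224 of 47729 (98.9%) were found in GENCODE M21.

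Counts were fitted in R 4.3.3 with edgeR 4.0.16 (TMM, filterByExpr, robust quasi-likelihood F test, Benjamini-Hochberg adjustment, threshold 0.05). The genotype fit held the 10 libraries of 1 tissue, and regions and their interaction with genotype over all 20 libraries. DESeq2 1.42.0, limma 3.58.1 (voom), library totals without TMM, no filter, the labelled sex, all 20 libraries in the genotype fit, the mouse as replicate block and each mouse left out were alternatives. A fit without the trend of the libraries on transcript length (spline, 5 degrees of freedom) was added after the data were seen. Standard errors and 95% intervals came from the F statistic. Figures were made with Python 3.11.15 and matplotlib 3.10.9. The fits were checked on simulated counts.

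Mouse numbers in the labels tie the hippocampus and cortex of 1 animal. The deviations of both libraries of a mouse from their group means correlated across genes with r of -0.04 to 0.25 (median 0.22), above 0.1 in 9 of 10 mice. No sequencing batch is given. Beside the 8 genes described, the cascade list held 1 gene that is not reported here.

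The members and lists were chosen with earlier results of these data known. Genes named are the 3 members, the 2 called genes of each list with the largest change in each direction per comparison, and the 5 genes nearest to *Ube3a* by correlation under each centring. *Snrpn*, *Ube2l3*, *Ubb* and RP24-439I22.8 were added after their values were seen, and *Herc2*, *Magel2* and *Peg12* in the genotype comparison likewise.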

Additional observations from a re-analysis of the deposited data

How the results depend on the processing

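The genotype differences of *Ube3a* and RP24-439I22.3 kept their direction under all 7 alternatives and in all 10 fits that left out 1 mouse: 1.20 to 1.33 and 0.53 to 0.67 in hippocampus and 1.23 to 1.34 and 0.27 to 0.42 in cortex (log2, alternatives). That of *Snhg14* stayed within -0.05 to 0.16 and changed sign. The region difference of *Snhg14* in WT was not called with library totals without TMM (-0.23, adjusted p = 0.119), without the filter (-0.30, 0.0691) and with the mouse as replicate block (-0.32, 0.0502), and ranged from -0.46 to -0.20 when 1 mouse was left out. In Ube3aOE mice it was called with the length trend removed (-0.33) and ranged from -0.30 to -0.24 when 1 mouse was left out, called without mouse 2. The replicate block changed no other call of the members; it moved the called cascade genes from 1 to 2 in WT and from 3 to 4 in Ube3aOE mice, and the called neighbours from 2 to 3 in WT. The region difference of *Ube3a* in WT ranged from -0.0140 (without mouse 2) to 0.18, that of RP24-439I22.3 in WT from -0.47 (called without mouse 5, adjusted p = 0.0343) to -0.18, and in Ube3aOE mice from -0.136 to 0.0583 (0.13 with the length trend removed). The interaction changed sign for *Ube3a* with library totals (-0.0195) and with the length trend removed (-0.0308), ranging from -0.0809 to 0.118 when 1 mouse was left out, and for *Snhg14* with the length trend removed (-0.00526), ranging from -0.0651 to 0.200. That of RP24-439I22.3 ranged from 0.126 to 0.420 when 1 mouse was left out. The interaction passed the threshold for none of the 3 genes in any fit (smallest adjusted p = 0.796). Called neighbours between regions numbered 3 in WT with DESeq2, limma voom and the length trend removed. They numbered 1 to 3 in WT and 0 to 1 in Ube3aOE mice when 1 mouse was left out, and in Ube3aOE mice 0 with limma voom, without the filter and with the length trend removed. Called cascade genes in WT numbered 2 with DESeq2 and limma voom, 0 with library totals, 4 with the length trend removed and 1 to 3 when 1 mouse was left out (3 without mouse 2), and in Ube3aOE mice 1 to 3 when 1 mouse was left out and 2 to 4 under the other alternatives. The cause of these changes was not tested. Depth limits RP24-439I22.3, with 42 to 94 counts per library.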
